A study of Mus musculus with 2 samples.

Results

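Zic1, Zic2, Zic4 and Zic5 were the 4 genes examined, chosen by symbol from the 32285 genes counted in single-cell RNA-seq of cranial neural crest cells, and each was present as a row in both libraries. The cells came from mouse heads at embryonic day E11.5, cut below the second pharyngeal arch, and were sorted for membrane GFP. Control embryos had 1 floxed copy of each gene (Tfap2a wt/flox with Tfap2b wt/flox), mutant embryos had only floxed copies (Tfap2a flox/flox with Tfap2b flox/flox), and both groups carried the reporter r26 mTmG/mTmG and the transgene Wnt1CRE+. Wnt1:CRE is active in the dorsal neural tube, so that labelled brain cells are recovered together with neural crest. Each group was 1 library of 2 pooled embryos, so no difference below has a replicate check and no p-value was computed. The brackets hold 95% intervals for counting error only.

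Zic proteins are zinc finger transcription factors related to the GLI effectors of hedgehog signalling. They are best known from the dorsal neural tube, the roof plate and the cerebellar primordium, and they are also found in the meninges, the membranes that cover the brain and derive in part from neural crest. Human ZIC1 and ZIC4 have been linked to a cerebellar malformation, and ZIC2 to a failure of the forebrain to divide.

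The 4 genes form pairs that lie head to head. In GRCm38, Zic1 (ENSMUSG00000032368) spans chromosome 9 from 91358058 to 91365810 on the minus strand and Zic4 (ENSMUSG00000036972) spans 91362413 to 91389348 on the plus strand. Zic5 (ENSMUSG00000041703) spans chromosome 14 from 122456795 to 122465677 on the minus strand and Zic2 (ENSMUSG00000061524) spans 122475435 to 122479852 on the plus strand. Zic5 and Zic2 are 9757 bases apart. Zic1 and Zic4 overlap by 3398 bases at their 5′ ends, and because no source used here states whether reads were counted by strand, reads in the overlap cannot be assigned with certainty. Libraries of this 3′ type read transcript ends, and the annotated 3′ ends of both genes lie outside the overlap.

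The start regions of 3 of the 4 genes are shown because all 4 genes were higher in the mutant mesenchyme, though not in mutant neural progenitors. They come from a RefSeq table (GRCm38.p6) in which 3 members matched, without Zic2, and each is given as 300 bases 5′ to 3′ on the gene's strand. Capitals mark GCCNNNGGC, a palindromic form of the TFAP2 motif, which therefore reads the same on both strands.
Zic1, chr9:91365719-91366018, minus strand: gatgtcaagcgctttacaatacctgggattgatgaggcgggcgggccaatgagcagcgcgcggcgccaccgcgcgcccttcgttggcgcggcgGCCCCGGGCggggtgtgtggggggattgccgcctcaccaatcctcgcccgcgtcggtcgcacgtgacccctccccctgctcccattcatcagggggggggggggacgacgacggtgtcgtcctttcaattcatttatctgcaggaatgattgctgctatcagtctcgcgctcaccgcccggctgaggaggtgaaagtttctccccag
Zic4, chr9:91368722-91369021, plus strand: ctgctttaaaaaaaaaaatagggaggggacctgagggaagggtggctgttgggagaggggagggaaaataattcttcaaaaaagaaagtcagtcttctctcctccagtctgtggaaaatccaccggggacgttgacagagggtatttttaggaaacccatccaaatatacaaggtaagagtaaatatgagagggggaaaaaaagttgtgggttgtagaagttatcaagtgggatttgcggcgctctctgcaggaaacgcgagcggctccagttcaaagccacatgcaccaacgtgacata
Zic5, chr14:122465609-122465908, minus strand: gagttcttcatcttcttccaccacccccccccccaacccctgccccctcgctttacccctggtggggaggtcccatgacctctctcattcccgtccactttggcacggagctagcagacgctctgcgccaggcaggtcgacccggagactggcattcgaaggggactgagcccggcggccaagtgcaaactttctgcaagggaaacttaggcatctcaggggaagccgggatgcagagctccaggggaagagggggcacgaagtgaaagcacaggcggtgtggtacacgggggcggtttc
The Zic1 region held 1 match and the Zic4 and Zic5 regions none. The Zic4 region lies inside the gene span given above, downstream of its 5′ end at 91362413 and of the overlap with Zic1. The lack of a match and the share of G and C therefore do not describe that 5′ end. Over 32851 start regions of this length, 16.6% held the motif on either strand, and a match describes the letters in a window only. G and C made up 65.3% of the Zic1 region, 46% of the Zic4 region and 62.7% of the Zic5 region, against a median of 52.7%.

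After filtering, 5625 control and 5587 mutant cells remained, with a median of 13478 and 12234 UMIs, where a UMI marks 1 captured transcript. The libraries shared 6 barcodes. Xist was at 1260 counts per 1000000 UMIs (CPM) in control cells and 0.0777 CPM in mutant cells, while 4 Y-linked genes summed to 0.0243 and 153 CPM, so that differences of genotype cannot be told apart from those of sex. Tfap2a was lower in the mutant mesenchyme, at 13.4 CPM against 19.4 CPM in the control, which gave a log2 ratio of mutant over control of -0.54 (-0.68 to -0.39). Tfap2b had 56.6 and 48 CPM, or -0.24 (-0.32 to -0.16), and 3′ counts do not separate intact from recombined transcripts.

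To place the Zic genes, cells were clustered without using any Zic or Tfap2 gene, which gave 7 mesenchyme and 17 neural clusters. One mesenchyme cluster, of 603 control and 569 mutant cells, carried the periocular and meningeal markers. Of the 7 markers of each kind, 6 periocular markers such as Foxc2 and Eya2, 6 meningeal markers such as Foxd1 and Tbx18, and all 7 markers of mural cells, the contractile cells of vessel walls, were higher there than in other mesenchyme. The mean log2 ratio was 2.66 for the mural, 2.31 for the meningeal and 1.93 for the periocular markers. Its leading genes included Vtn, Tagln and Acta2. The cluster is called periocular or meningeal below, a name chosen with the mural list left out. Its cells had a median of 11934 control and 11500 mutant UMIs, with 0.332% and 0% called doublets. In finer clustering, 99.8% of the control cells and 99.6% of the mutant cells of this cluster fell into 3 groups. These were periocular-like (248 control and 174 mutant cells), meningeal-like (323 and 286) and mural-like (88 and 117). They also took in 57 control and 10 mutant cells from outside the cluster, of which 42 and 8 were periocular-like and the others meningeal-like. Markers separated the first 2 groups weakly, since each had 6 periocular and 6 meningeal markers higher than in other mesenchyme. The 7 periocular markers summed to 420 CPM in control periocular-like and 470 CPM in control meningeal-like cells, and to 440 and 414 CPM in mutant cells. The 7 meningeal markers summed highest in mural-like cells, with 1577 control and 1301 mutant CPM. Neural progenitors, the dividing cells that give rise to neurons, were 674 control and 1109 mutant cells in 4 clusters led by genes that include Wfdc1 and Dmbx1, Fgf8 and Fgf17 (isthmic-like), Msx3 and Wnt3a, and Nkx2-1 and Dlx1. A mesenchyme cluster of 46 control and 88 mutant cells mixed neural and mesenchymal genes, and 76.1% and 69.3% of its cells were called doublets. It was counted in the mesenchyme totals and left out where stated.

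All 4 Zic genes were higher in the mutant mesenchyme. Zic1 had 656 UMIs (11.2 CPM) in the control and 1270 UMIs (28.9 CPM) in the mutant mesenchyme, a log2 ratio of 1.36 (1.22 to 1.5). Zic4 had 116 UMIs (1.99 CPM) and 287 UMIs (6.52 CPM), or 1.72 (1.40 to 2.04). Zic2 had 180 UMIs (3.08 CPM) and 470 UMIs (10.7 CPM), or 1.79 (1.54 to 2.05). The ratio of Zic5 was the highest of the 4, with 266 UMIs (4.55 CPM) and 857 UMIs (19.5 CPM), or 2.10 (1.90 to 2.30). Thus 4 of 4 members lay 1.5-fold or more higher, against 2.33% of the 11660 genes with at least 100 UMIs in 1 or both libraries, while 0.901% of genes lay that far lower. Their median log2 ratio was 1.75, against 0.02 over all those genes. Without the mixed cluster, the ratios were 1.33 for Zic1, 1.45 for Zic4, 1.83 for Zic2 and 2.14 for Zic5.

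The mutant mesenchyme also held relatively more periocular or meningeal cells, 20.2% against 16% of mesenchyme cells. With the mixed cluster left out and the cell shares of the other clusters held at their control values, the mutant library still had more UMIs per cell of each gene. The log2 ratio per cell went from 1.32 to 0.99 for Zic1, from 1.45 to 1.14 for Zic4, from 1.83 to 1.51 for Zic2 and from 2.14 to 1.95 for Zic5.

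Within the periocular or meningeal cells, every member was again higher in the mutant library. Zic1 had 567 UMIs (72.7 CPM) in control and 1050 UMIs (146 CPM) in mutant cells, a log2 ratio of 1.00 (0.85 to 1.15). Zic4 had 94 UMIs (12.1 CPM) and 197 UMIs (27.3 CPM), or 1.18 (0.82 to 1.55). Zic2 had 152 UMIs (19.5 CPM) and 302 UMIs (41.9 CPM), or 1.10 (0.82 to 1.39). Zic5 again had the highest ratio, with 178 UMIs (22.8 CPM) and 475 UMIs (65.9 CPM), or 1.53 (1.28 to 1.79). In these cells 2.57% of 8142 genes lay 1.5-fold or more higher and 1.17% lower.

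In neural progenitors, by contrast, the levels of both libraries nearly coincided. Zic1 had 1215 UMIs (146 CPM) in control and 1937 UMIs (145 CPM) in mutant cells, a log2 ratio of -0.01 (-0.11 to 0.10). Zic4 had 429 UMIs (51.5 CPM) and 693 UMIs (51.9 CPM), or 0.01 (-0.16 to 0.19). Zic2 had 149 UMIs (17.9 CPM) and 245 UMIs (18.3 CPM), or 0.04 (-0.26 to 0.34). Zic5 was the only member whose point value was below 0 by more than 0.1, with 548 UMIs (65.8 CPM) and 791 UMIs (59.2 CPM), or -0.15 (-0.31 to 0.01). No member reached 1.5-fold, and few genes did, with 0.534% of 9184 genes higher and 0.381% lower. The upper interval bounds of the 4 genes, at most 0.34, were under the lower bounds in periocular or meningeal cells, at least 0.82. The log2 ratio was lower in progenitors than in periocular or meningeal cells by a difference of -1.01 (-1.19 to -0.83) for Zic1, -1.17 (-1.58 to -0.77) for Zic4, -1.07 (-1.49 to -0.65) for Zic2 and -1.68 (-1.98 to -1.38) for Zic5.

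**Figure D1:**
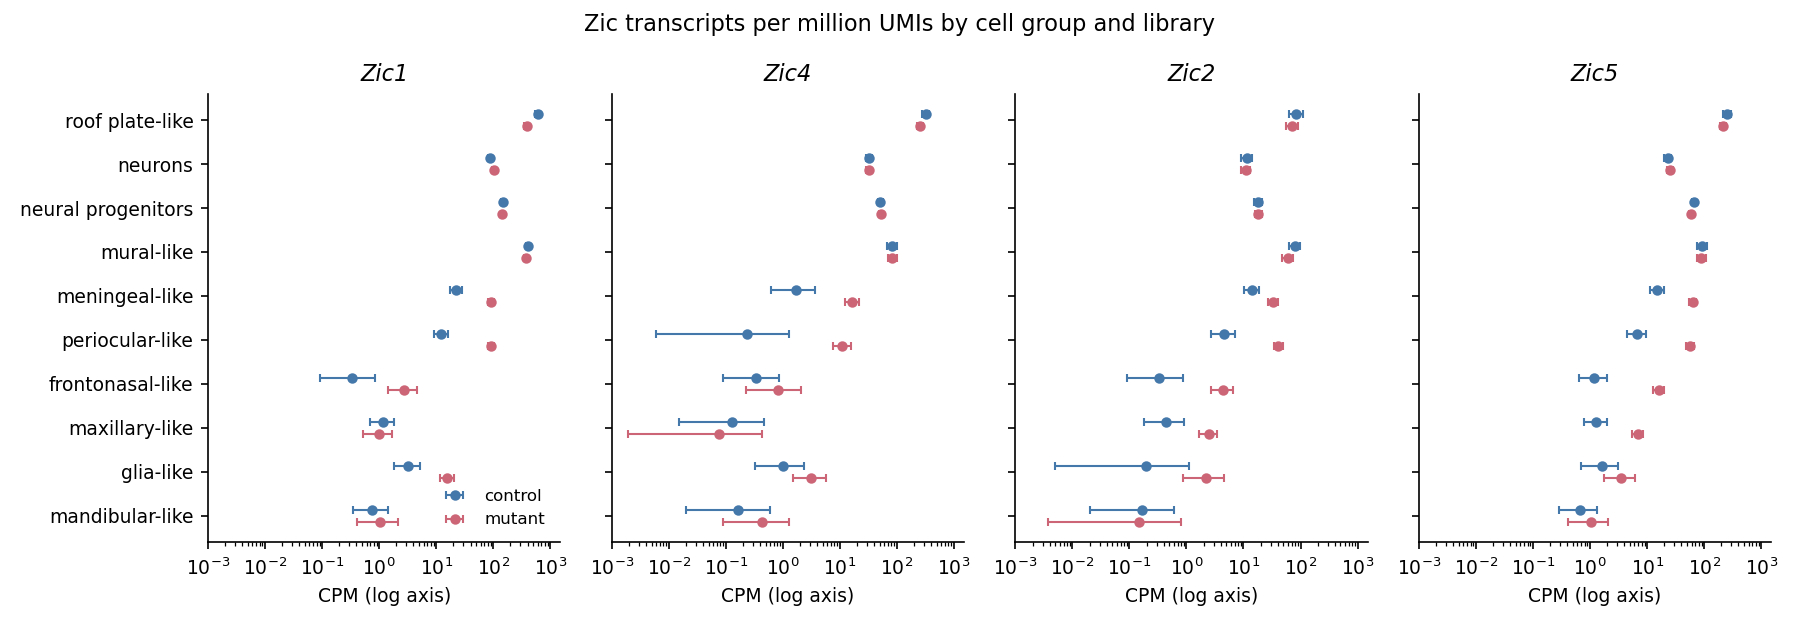
Level of each Zic gene in CPM, on a log axis, in 10 groups of cells of the control (blue) and mutant (red) library. Points are CPM of summed UMIs and bars 95% Poisson intervals. The libraries are apart in the periocular-like and meningeal-like groups for all 4 genes and overlap or nearly coincide in mural-like cells and progenitors.

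The order of the cell types within a library therefore differed between the libraries. In control cells, Zic1 was 2.01-fold (1.81 to 2.22) higher in progenitors than in periocular or meningeal cells, Zic4 4.27-fold (3.41 to 5.4) and Zic5 2.88-fold (2.43 to 3.43), while Zic2 had a ratio of 0.917 (0.727 to 1.16). In mutant cells the ratio was 0.995 (0.923 to 1.07) for Zic1 and 0.899 (0.801 to 1.01) for Zic5, so that progenitors and periocular or meningeal cells were not apart beyond counting error. Zic2 was then lower in progenitors, with a ratio of 0.438 (0.368 to 0.52). Zic4 alone was still higher in mutant progenitors, 1.9-fold (1.62 to 2.23). This order rests in part on the mural-like cells, since without them the log2 ratio of progenitors over the rest went from -0.12 to 0.82 for Zic2 in control cells and from -0.01 to 0.65 for Zic1 in mutant cells.

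Finer clustering placed the difference in the periocular-like and meningeal-like cells, not in the mural-like cells. In mural-like cells Zic1 had 435 UMIs (407 CPM) in control and 511 UMIs (377 CPM) in mutant cells, a log2 ratio of -0.11 (-0.30 to 0.08). The ratios there were 0.02 (-0.40 to 0.44) for Zic4, -0.38 (-0.83 to 0.08) for Zic2 and -0.05 (-0.45 to 0.35) for Zic5. Mural-like cells had the highest level of each gene among the 3 groups in both libraries, although for Zic2 in mutant cells their interval of 48.1 to 75.1 CPM overlapped the periocular-like one of 33.8 to 48.8 CPM, and 86.4% of control and 77.8% of mutant mural-like cells held a Zic1 UMI.

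Meningeal-like cells had few Zic UMIs in the control library. Zic1 went from 80 UMIs (22.3 CPM) to 284 UMIs (90.5 CPM), a log2 ratio of 2.02 (1.66 to 2.40). Zic4 went from 6 UMIs (1.67 CPM) to 52 UMIs (16.6 CPM), or 3.31 (2.09 to 4.82). Zic2 rose least, from 50 UMIs (14 CPM) to 105 UMIs (33.5 CPM), or 1.26 (0.76 to 1.78). Zic5 went from 54 UMIs (15.1 CPM) to 198 UMIs (63.1 CPM), or 2.07 (1.62 to 2.53).

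In periocular-like cells the ratios were higher still. Zic1 went from 52 UMIs (12.2 CPM) to 264 UMIs (90.4 CPM), a log2 ratio of 2.88 (2.45 to 3.34). Zic4 had 1 UMI in 248 control cells and 32 UMIs in 174 mutant cells, or 5.54 with a wide interval of 2.96 to 10.89. Zic2 went from 19 UMIs (4.48 CPM) to 119 UMIs (40.8 CPM), or 3.19 (2.48 to 3.97), and Zic5 from 28 UMIs (6.6 CPM) to 165 UMIs (56.5 CPM), or 3.1 (2.51 to 3.73). Beyond counting error, meningeal-like cells had a lower ratio than periocular-like cells for Zic1 by -0.87 (-1.45 to -0.29), Zic2 by -1.93 (-2.85 to -1.05) and Zic5 by -1.03 (-1.80 to -0.29), whereas for Zic4 the interval of -2.23 (-7.72 to 0.76) held 0. With the cells from outside the cluster left out, the ratios were 1.90 for Zic1, 3.24 for Zic4, 1.22 for Zic2 and 2.01 for Zic5 in meningeal-like cells, and 2.63 for Zic1, 2.89 for Zic2 and 2.89 for Zic5 in periocular-like cells. Zic4 then had 0 control and 32 mutant UMIs in periocular-like cells. With a floor of 3 counts as the control sum, its log2 ratio was 3.70, and the lower interval bound was 3.32. Few cells carried much of the signal, since 10 cells held 53.8% of the Zic1 UMIs of mutant periocular-like cells.

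These differences came with more cells that held a UMI. After thinning every cell to 5000 UMIs, 2.45% (0.904 to 5.25) of the control periocular-like cells held a Zic1 UMI, against 20.1% (14.4 to 26.8) in the mutant library, and for meningeal-like cells these shares were 7.26% (4.61 to 10.8) and 16.7% (12.5 to 21.7). A Zic5 UMI was found in 2.45% and 17.8% of periocular-like and in 5.94% and 22.7% of meningeal-like cells. Without thinning, the Zic5 shares were 7.66% and 39.7%, and 11.8% and 36.7%. Thinning left out 3 control and 0 mutant periocular-like cells and 20 and 17 meningeal-like cells. Mandibular-like mesenchyme served as background, and there between 0.238% and 1.43% of unthinned cells held a UMI of any 1 member, at a median of 13559 control and 15582 mutant UMIs. The periocular-like cells had a median of 16591 and 15236 UMIs, and the meningeal-like cells 10871 and 9997.

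Markers of other cells were read in the same groups. The 10 neural progenitor markers summed to 140 and 141 CPM in control and mutant periocular-like cells and to 150 and 158 CPM in meningeal-like cells, against 3466 and 3629 CPM in progenitors. The 7 mural markers summed to 92.1 and 101 CPM in periocular-like and to 130 and 138 CPM in meningeal-like cells, against 882 and 1751 CPM in mural-like cells. Of these 2 lists, neither therefore moved by as much as the Zic genes in the periocular-like and meningeal-like cells. The 6 neuron markers did move, from 37 to 71.9 CPM and from 38 to 87.6 CPM, and the 7 meningeal markers rose from 449 to 799 CPM and from 632 to 891 CPM. The 7 periocular markers went from 420 to 440 CPM in periocular-like and from 470 to 414 CPM in meningeal-like cells. The part of any of these lists in the Zic difference was not tested. Blood genes summed to 1583 CPM in control periocular or meningeal cells, where 1 cell held 5 or more of their UMIs, and to 7.63 CPM in mutant cells.

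**Figure D2:**
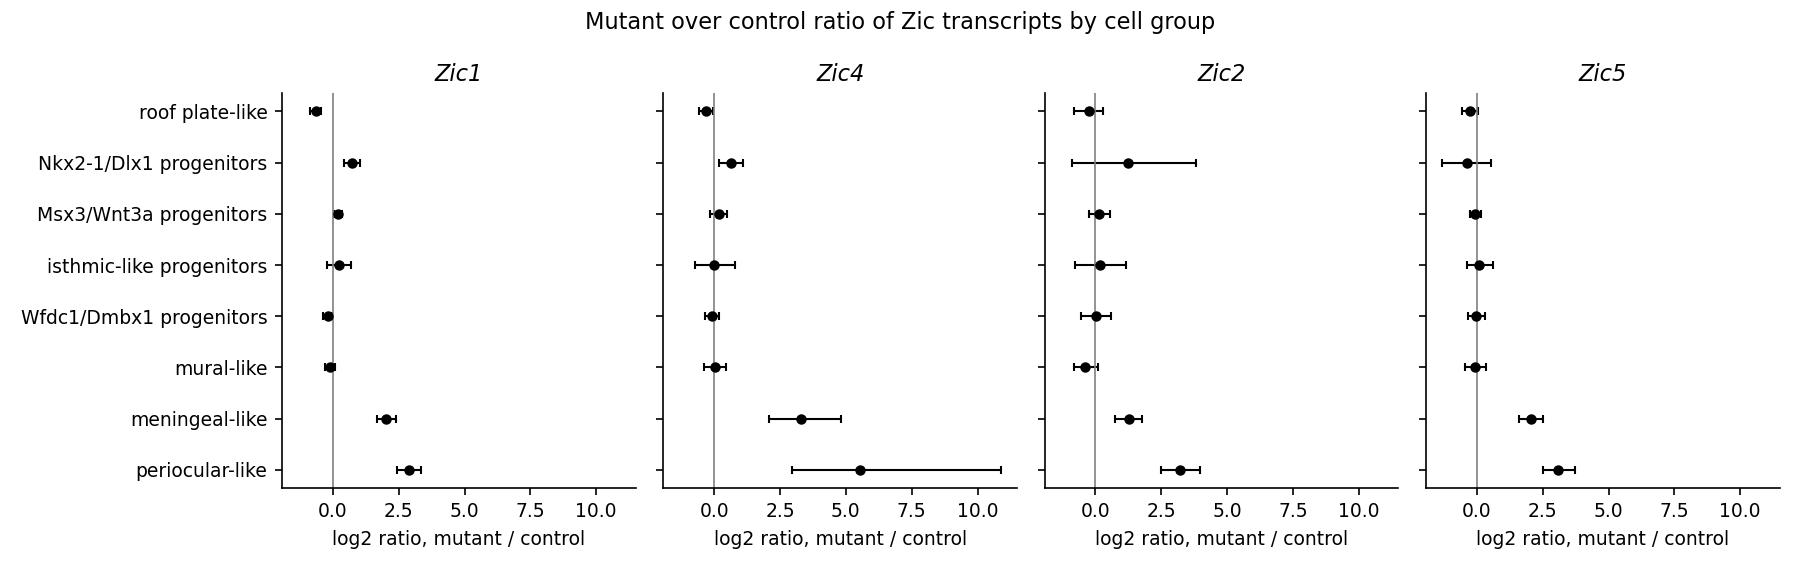
Log2 ratio of mutant over control CPM of each Zic gene in 3 groups of mesenchyme, 4 clusters of neural progenitors and the roof plate-like cells. Points are ratios of summed UMIs and bars 95% intervals for counting error. Periocular-like and meningeal-like cells lie right of 0 for all 4 genes, and mural-like intervals include 0.

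Zic2 and Zic5 also differed in the rest of the mesenchyme, at low levels. Outside the periocular or meningeal and mixed clusters, Zic2 went from 19 UMIs (0.385 CPM) in 3114 control cells to 143 UMIs (4.14 CPM) in 2161 mutant cells, a log2 ratio of 3.43 (2.73 to 4.2). Zic5 went from 61 UMIs (1.24 CPM) to 297 UMIs (8.59 CPM), or 2.80 (2.40 to 3.22). For the other pair the ratio was lower, 1.23 (0.66 to 1.82) for Zic1 from 42 and 69 UMIs and 0.65 (-0.72 to 2.04) for Zic4 from 10 and 11 UMIs.

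This spread over several clusters, while in the mandibular-like one UMIs were few and no ratio was resolved from 0. In maxillary-like cells, Zic5 had 20 control and 90 mutant UMIs and was 5.39-fold higher, and Zic2 had 7 and 32 UMIs and was 5.47-fold higher, while Zic1 had 18 and 13 UMIs. In frontonasal-like cells, Zic5 had 14 and 78 UMIs and was 13.7-fold higher, and Zic1 had 4 and 13 UMIs, 8.02-fold higher (1.31 to 5.08 on the log2 scale). In a cluster led by genes that include Dlx3 and Hoxa2, Zic2 had 4 and 40 UMIs, or 3.50 (2.03 to 5.45), and Zic1 had 7 and 21 UMIs, or 1.77 (0.48 to 3.24). In mandibular-like cells, Zic5 had 8 and 7 UMIs, or 0.61 (-1.09 to 2.27), and Zic1 9 and 7, or 0.44 (-1.22 to 2.03). Zic2 had 2 and 1 UMIs there and Zic4 2 and 3, too few for a ratio. A small cluster led by genes that include Cyp26a1 and Ebf2 had 2 control and 49 mutant Zic2 UMIs, with a log2 ratio of 3.89 (1.96 to 6.98), and 2 and 0 Zic4 UMIs. In the mutant library Zic2 and Zic5 stood at 0.146 and 1.02 CPM in mandibular-like cells, against 2.44 and 6.86 CPM in maxillary-like cells.

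Within the brain, the clusters differed from each other more than the libraries did. Roof plate-like cells, which express the choroid plexus gene Ttr and lie at the dorsal midline, had the highest level of Zic4 in both libraries, with 319 CPM (276 to 368) in 44 control and 259 CPM (229 to 292) in 76 mutant cells, and the next cluster in each library was lower beyond counting error. For Zic1 they were first in the control library, with 604 CPM (543 to 669), but not apart from the Msx3 and Wnt3a progenitors in the mutant library, with 384 CPM (348 to 424) and 403 CPM (376 to 430). Zic2 and Zic5 also had their highest levels in the roof plate-like cells, followed by the Msx3 and Wnt3a progenitors, and these neighbours lay apart beyond counting error for Zic2 in control cells only. Over the 22 unmixed clusters, 2 to 5 of the 21 neighbours in the order of a gene lay apart beyond counting error in control cells and 1 to 5 in mutant cells, so most of each order is not resolved.

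Among the 4 progenitor clusters, isthmic-like progenitors had the lowest Zic1 level, 26.4 CPM from 64 UMIs in control cells, with a log2 ratio interval of -0.23 to 0.68. The Msx3 and Wnt3a progenitors had 353 and 403 CPM, an interval of 0.03 to 0.35. The Wfdc1 and Dmbx1 progenitors had 128 CPM in control cells and were 0.877-fold in the mutant library, with an interval of -0.36 to -0.02. The Nkx2-1 and Dlx1 progenitors, of 59 control and 68 mutant cells, departed from the others, since Zic1 was 1.67-fold and Zic4 1.56-fold higher in the mutant library. Zic2 had 3 and 7 UMIs and Zic5 25 and 19 UMIs in these cells.

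In roof plate-like cells, Zic1 was lower in the mutant library, from 363 to 402 UMIs at a larger total, a log2 ratio of -0.65 (-0.86 to -0.44). The ratios were -0.30 (-0.57 to -0.03) for Zic4, -0.26 (-0.80 to 0.28) for Zic2 and -0.24 (-0.55 to 0.06) for Zic5. Summed over all neuron clusters, the ratios were 0.22 (0.09 to 0.35) for Zic1, -0.03 (-0.26 to 0.19) for Zic4, -0.06 (-0.45 to 0.34) for Zic2 and 0.13 (-0.14 to 0.39) for Zic5. Single neuron clusters differed more, with Zic1 1.79-fold (0.37 to 1.34 on the log2 scale) in a cluster led by genes that include Hmx2 and Lhx4, 1.79-fold (0.50 to 1.20) in sensory neuron-like cells and 1.55-fold (0.12 to 1.18) in rhombic lip-like cells with Atoh1. Zic5 was 2.12-fold (0.31 to 1.92) in excitatory neuron-like cells.

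The head-to-head pairs had similar patterns over clusters. Over 18 clusters in each of the 2 libraries, or 36 points, Pearson's r of log2(CPM + 1) was 0.97 between Zic1 and Zic4 and 0.88 between Zic2 and Zic5, and in each case the partner ranked first among 14006 genes. Between the pairs, r was 0.81 for Zic1 and Zic2, 0.76 for Zic1 and Zic5, 0.74 for Zic4 and Zic2 and 0.74 for Zic4 and Zic5. Points of 1 library share its depth and free RNA, and no p is given. Among the other genes most like Zic1 were Fbxo6 (0.83), Zic2 and Nras (0.78). Among those most like Zic4 after Zic1 were Fbxo6 (0.84), Mbp (0.82) and Nras (0.81). For Zic2 they were Zic1, Zic4, Il17ra (0.69) and 2610035F20Rik (0.68), a non-coding gene that lies between Zic5 and Zic2, and for Zic5 they were Ezr (0.79), Vim (0.78), Zic1 and the antisense one of 2 genes named Gm5089 (0.76), which lies within 60 kb of Zic5.

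**Figure D3:**
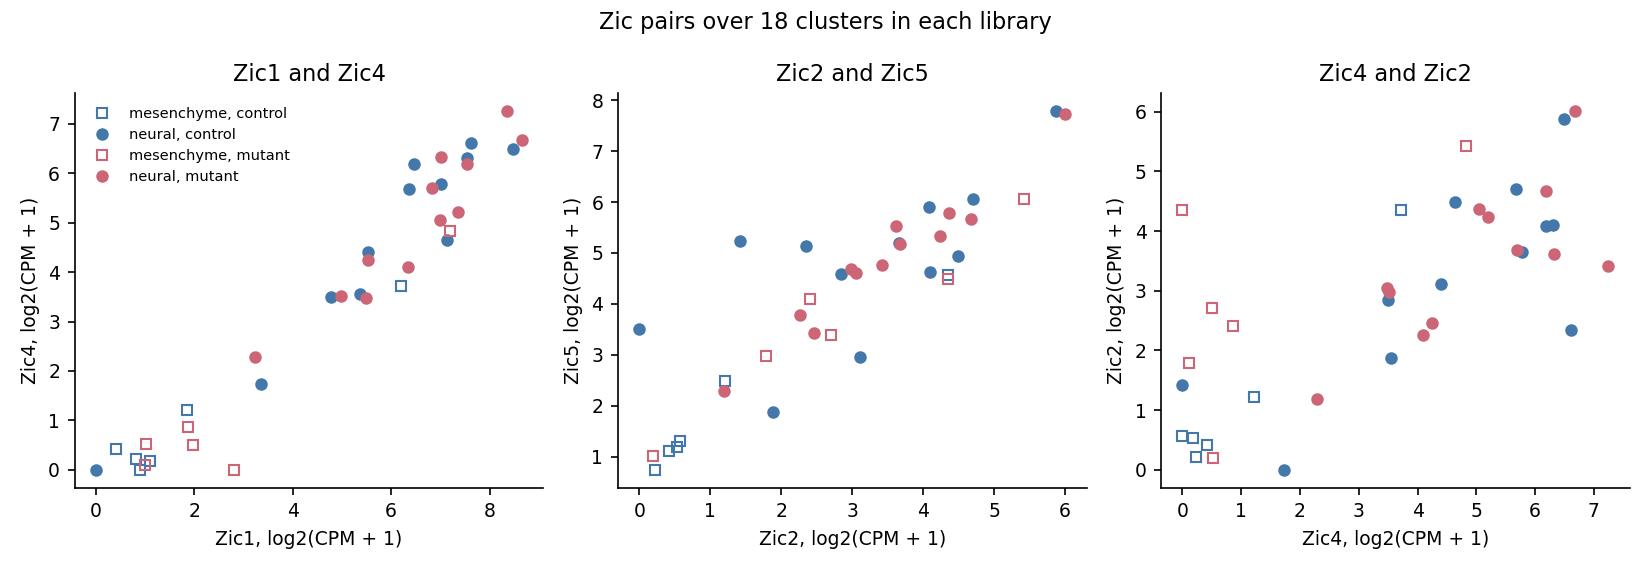
Each point is 1 cluster in 1 library, placed by log2(CPM + 1) of the named genes. Open squares are mesenchyme clusters, filled circles neural clusters, blue is control and red mutant. Zic1 and Zic4 fall along a line (r of 0.97), whereas for Zic4 and Zic2 (0.74) several mutant mesenchyme clusters have Zic2 with little or no Zic4.

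The pairs came apart in a few clusters. Sensory neuron-like cells had 100 Zic1 and 24 Zic4 UMIs in 25 control cells but no UMI of Zic2 or Zic5, and 0 of 25 cells allows a share of cells with a UMI of up to 12%, which limits detection at this depth and not expression. In the 40 mutant cells of that cluster Zic2 had 12 and Zic5 11 UMIs beside 227 of Zic1 and 42 of Zic4. In the inhibitory neuron-like cluster led by Otp and Pax2, Zic2 had 2 control and 13 mutant UMIs and Zic5 2 and 9, while Zic1 and Zic4 had none in 20 control and 34 mutant cells, which allows shares of cells with a UMI of up to 15% and 8.82%.

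Single cells were next asked for both genes of a pair, in cells thinned to 5000 UMIs. In control periocular or meningeal cells, 4.01% (2.56 to 5.96) of 573 cells held both Zic1 and Zic4, against 0.804% from the product of the single shares. In mutant cells this was 7.9% (5.78 to 10.5) of 544 cells, against 2.76%. Of the cells with a Zic4 UMI, 79.3% in the control and 79.6% in the mutant library also held Zic1. In control progenitors 12.3% (9.94 to 15.1) held both, against 4.92%, and in mutant progenitors 14.3% (12.3 to 16.5), against 5.56%.

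Zic2 and Zic5 were found together in 2.44% (1.34 to 4.07) of control periocular or meningeal cells, against a product of 0.761%, and in 8.64% (6.42 to 11.3) of the mutant ones, against 4.27%. In progenitors the shares were 4.52% (3.07 to 6.39) and 5.29% (4.03 to 6.8), against 1.59% and 1.81%. Genes of different pairs also met more often than the product, such as Zic1 and Zic5 with 12.1% against 6.58% in mutant periocular or meningeal cells. The observed share was 3.21 to 4.99 times the product over the 6 combinations in control periocular or meningeal cells and 1.84 to 2.87 times in mutant ones. These groups hold several cell types, mural-like cells with the highest levels among them, and the part of that mixture in the shares was not tested.

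**Figure D4:**
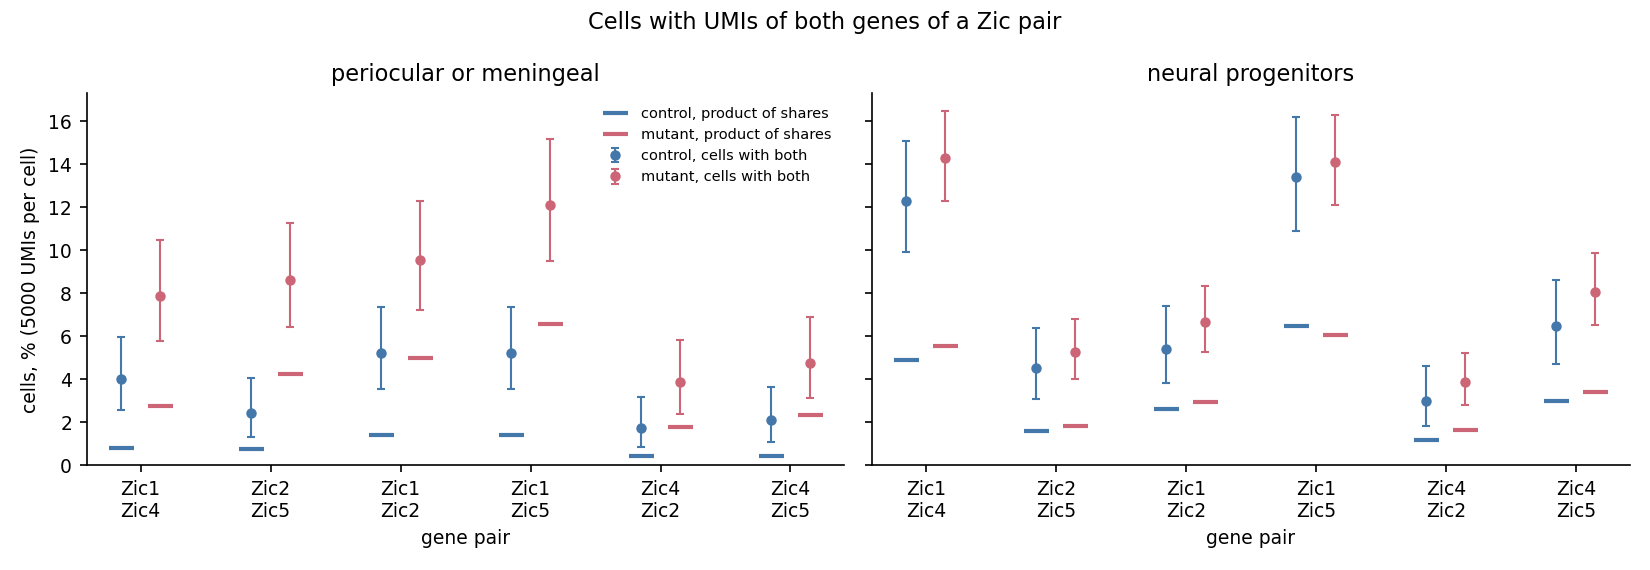
Percent of cells, thinned to 5000 UMIs, with a UMI of both genes of each pair (points, with 95% Clopper-Pearson intervals) and the product of the single shares (dashes), in periocular or meningeal cells and in neural progenitors of the control (blue) and mutant (red) library. Every point lies above its dash, and the libraries are closer together in progenitors than in periocular or meningeal cells.

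Transcripts beside the loci were compared as well. The non-coding gene 2610035F20Rik had 5 control and 13 mutant UMIs in periocular or meningeal cells and 31 and 37 UMIs in progenitors. The antisense gene Gm5089 had 25 and 55 UMIs (3.21 and 7.63 CPM) in periocular or meningeal cells and 118 and 178 UMIs in progenitors. Of the genes farther out, Clybl had 21.2 and 23 CPM and Pcca 27.2 and 35.2 CPM in periocular or meningeal cells. Gm29478, a non-coding gene downstream of Zic4, had 7 and 6 UMIs in periocular or meningeal cells and 102 and 131 UMIs in progenitors.

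Related zinc finger genes served for comparison. Of 7 such genes, 6 were measured in mesenchyme, of which 1, not named here, was higher and 0 lower. Of all genes, 2.33% were higher and 0.901% lower there. In mesenchyme, Glis1 had 258 control and 254 mutant UMIs, a log2 ratio of 0.39 (0.13 to 0.64). Gli3, the GLI effector that acts mainly as a repressor, had 4667 and 3456 UMIs there, or -0.03 (-0.09 to 0.04). In progenitors Gli3 had 0.03 (-0.09 to 0.15). In periocular or meningeal cells, however, Gli3 was higher in the mutant library, with 349 and 451 UMIs, or 0.48 (0.28 to 0.69). Glis1 and Gli3 were thus within 1.5-fold in mesenchyme, as Gli3 was in progenitors and in periocular or meningeal cells.

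Of 19 genes of the dorsal neural tube and roof plate, 9 were measured in mesenchyme, 0 were higher and 1 was lower, with a median of -0.43, against 2.33% of all genes higher and 0.901% lower. The one past 1.5-fold was Pax7, a paired-box factor of dorsal neural tube and neural crest, with -0.88 (-1.03 to -0.72), followed by Msx2 with -0.56 (-0.64 to -0.47) and the Wnt potentiators Rspo1 with -0.50 and Rspo2 with -0.46. In periocular or meningeal cells 9 were measured, 1 was higher and 4 were lower, against 2.57% and 1.17% of all genes, with a median of -0.09. Among these were Rspo3 with 1.03 (0.74 to 1.32), Rspo1 with -0.97 (-1.22 to -0.72) and Pax7 with -0.72 (-1.12 to -0.32). In progenitors 11 were measured, 0 were higher and 1 was lower, against 0.534% and 0.381% of all genes, with a median of -0.07. That gene was Rspo3, with 128 control and 94 mutant UMIs and -1.13 (-1.53 to -0.73), while the crest and midbrain signal Wnt1 had -0.27 (-0.48 to -0.06).

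Of 16 periocular and meningeal genes, 15 were measured in mesenchyme, of which 4 were higher and 1 lower, against 2.33% and 0.901% of all genes. Their median was 0.30, and several of them also served as markers above. The small leucine-rich proteoglycan genes Ogn and Lum had 1.15 (0.89 to 1.42) and 0.76 (0.70 to 0.82), and the T-box gene Tbx18 had 0.74 (0.58 to 0.90). Within the periocular or meningeal cells 2 of 14 measured genes were higher and 2 lower, against 2.57% and 1.17% of all genes, with a median of -0.07, while the median of the 4 Zic genes in the same cells was 1.14.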

How the data were processed

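The members and lists were chosen with earlier results of these data known. Raw UMI counts were deposited as made by the authors with Cell Ranger (6.0.0 in the file headers) on mm10 from 10x 3′ libraries, and the filtered barcodes were deposited. Barcodes with over 10% mitochondrial UMIs, under 200 or over 7500 genes were removed, which left 82313680 control and 77251738 mutant UMIs. Anchor integration of both libraries used Seurat 5.3.0 (R 4.3.3) with 2000 variable genes in 30 dimensions and clustered at a resolution of 0.05. Mesenchyme and neural cells were clustered again in 20 dimensions at 0.4, and finer at 0.8. Zic, Tfap2a, Tfap2b, Xist, Tsix, Y-linked and haemoglobin genes took no part. Clusters were named "-like" where at least 3 markers were higher, the mean log2 ratio was the highest and above 0, and the 10 leading genes held own markers. The mural name was withheld where its mean led by under 1, a rule set after the clusters had been seen. Scrublet in scanpy 1.11.5 called 1.65% of control and 3.06% of mutant cells doublets, which were kept.

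CPM are summed UMIs per 1000000. Poisson, Clopper-Pearson and conditional binomial intervals are exact and, as with the floor of 3 counts used where a library had 0, cover counting error only. Limits of shares where 0 cells held a UMI are this floor over the number of cells, not Clopper-Pearson bounds. Intervals of differences of log2 ratios combine the intervals of both. The ratio was tested on simulated data. Genes most like a member were ranked over unmixed clusters of at least 50 cells in each library. From each list, up to 4 measured genes with the largest ratios were named. Some genes that these rules name are not reported here. Alternatives removed doublets, weighted cells equally, thinned cells, used TMM factors (edgeR 4.0.16), left out integration or changed the resolution, the count minimum or the pseudocount. Those without the mixed cluster and without mural-like cells, and those of finer groups without cells from outside the cluster, were added after seeing the data. Positions are from GENCODE M21, an annotation of GRCm38, the assembly of mm10.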

Additional observations from a re-analysis of the deposited data

Results flagged for a closer look

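The direction of the Zic1 and Zic4 differences was opposite in cell groups of the same libraries, with each interval clear of 0. The log2 ratio of mutant over control for Zic1 was 1.00 in periocular or meningeal cells and 0.22 in neurons but -0.65 in roof plate-like cells, and that for Zic4 was 1.18 in periocular or meningeal cells but -0.30 in roof plate-like cells. With 1 library per group the difference between cell groups was not tested over samples. The roof plate-like cells were 44 control and 76 mutant cells, of which 97.7% and 96.1% held a Zic1 UMI, with 8.44 and 5.51 UMIs per such cell. Their median depth was 11379 and 13006 UMIs.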

How the results depend on the processing

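Among the alternatives run, no log2 ratio whose interval lay clear of 0 changed sign, and 119 of 136 alternative values of the 20 ratios compared stayed within the interval reported. Of 78 alternative values of other results, 50 stayed and 28 moved, most of them shares of cells with a UMI, or with UMIs of both genes of a pair, that fell on thinning. All ratios of the mesenchyme and of progenitors between the libraries stayed within the interval reported. The log2 ratio of mutant over control in periocular or meningeal cells moved without the mural-like cells to 2.23 for Zic1, 4.01 for Zic4, 1.90 for Zic2 and 2.37 for Zic5. Without integration it was 0.76 for Zic1, 0.78 for Zic2 and 1.28 for Zic5, and at a resolution of 0.8 it was 1.16 for Zic1. The cause was not tested. The progenitor over periocular or meningeal log2 ratio of the control library without the mural-like cells was 2.89 for Zic1, 5.85 for Zic4, 0.82 for Zic2 and 2.49 for Zic5, and that of the mutant library 0.65 for Zic1 and 1.85 for Zic4. Without integration it was 0.71 for Zic1 and 1.75 for Zic4 in the control library, and at 0.8 it was 1.20 for Zic1. At a resolution of 0.2 no periocular or meningeal cluster formed, so it gave no value. TMM scaling shifted ratios between the libraries by -0.05 to 0.02. With at least 30 UMIs in place of 100, the share of all genes past 1.5-fold was 6.4% in mesenchyme, 6.99% in periocular or meningeal cells and 3.54% in progenitors. On log2(CPM + 10), 2 of the 5 genes most like Zic2 were shared. Low counts limit Zic4 in mesenchyme and any member in clusters under 50 cells. No paired analysis was possible because each group was 1 library.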

Other observations

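In a neural cluster led by genes that include Shh and Lmx1a, of 54 control and 69 mutant cells, Zic1 and Zic4 had no UMI in control cells, where 0 of 54 allows a share of cells with a UMI of up to 5.56%, which limits detection and not expression. The mutant cells held 30 Zic1 UMIs in 6 cells and 7 Zic4 UMIs in 2 cells. With a floor of 3 counts as the control sum, Zic1 was 8.69-fold higher. The lower interval bound was 2.73 on the log2 scale. Zic5 had 22 control and 16 mutant UMIs there.

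In glia-like cells, Zic1 had 16 UMIs in 6 of 259 control cells and 50 UMIs in 13 of 198 mutant cells, a log2 ratio of 2.30 (1.46 to 3.21), and 94% of the mutant UMIs lay in 10 cells. Zic2 had 1 and 7 UMIs in the same cells.

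Over all kept cells, the neural progenitors held 40.6% of the control and 37.3% of the mutant Zic1 UMIs, and the mesenchyme 21.9% and 24.5%. For Zic5 the mesenchyme held 22% and 37.3%, and for Zic2 37.7% and 48%.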
